A study of Mus musculus with 2 samples.

Results

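In single-cell RNA sequencing of sorted cones, 10 genes were found in most wells of the GSK-J4-treated library and in few or no wells of the uninjected library: *Kif23*, *Smtnl1*, *Hcar2*, *Themis3*, *Cmklr1*, *Msrb3*, *Sin3a*, *Slc7a7*, *Psd3* and *Hs6st2*. They are 10 of the 17774 genes with a row in the deposited counts, and all 10 were among the 15947 genes found in 3 cells or more. They were chosen by these shares of cells, so the shares, the differences between the libraries and everything that follows from them are given as a description, without a test. Per-well counts showed 2 kinds of pattern within the 10 genes. *Themis3* had graded counts, from 0 to 32 per treated well, that went up with the depth of the well. The other 9 had exactly 1 count in most treated wells, and 8 of these 9 had 1 further well with 99 to 5763 counts.

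Both libraries came from *Pde6c*.GFP mice on a C57BL/6 background, which carry the *Pde6ccpfl1* mutation, a loss of the cone phosphodiesterase that leads to early cone death, together with eGFP driven by the *Chrnb4* promoter (Chrnb4.eGFP). Eyes of the GSK-J4-treated group received 1 intravitreal injection of GSK-J4, an inhibitor of the H3K27 demethylases, at 10 µM on postnatal day (PN) 14, and cones of both groups were collected at PN24, which is 10 days later; the uninjected group had no injection, not even of vehicle. GFP-positive cells were sorted 1 per well, and there was 1 library and 1 plate per group, so the effect of GSK-J4 and that of the plate or library cannot be told apart, and p-values were not computed. The cell names of the treated library hold the word adult, whereas the labels give PN24.

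After removal of cells with fewer than 200 genes or over 5% mitochondrial counts, 82 uninjected cells of 85 and 64 GSK-J4-treated cells of 66 remained. Depth differed between the libraries, with a median of 8118 counts per uninjected cell (860 to 98250) and 2335.5 per treated cell (420 to 15371). The label of cone was checked on 11 cone markers, which together made up 2.59% of all counts in uninjected and 0.213% in treated cells, and 5 of them (*Opn1sw*, *Gngt2*, *Cngb3*, *Pde6c* and *Guca1a*) were at 0 in all treated cells. Only 14 of the 64 treated cells had a count of any cone marker, 12 of them among the 35 treated cells with all 10 genes and 2 among the other 29. The 35 were also deeper, at a median of 3980 counts against 883, and the part of depth in this was not tested. Nor was the part that the difference in cone markers between the libraries had in the results below. Rod markers made up 0.490% of uninjected and 0.0206% of treated counts, and Müller glia markers 0.111% and 0.0331%. Olfactory and vomeronasal receptor genes, best known from the nose, made up 0.624% of uninjected and 1.43% of treated counts. Markers of immune, muscle and dividing cells took small shares of the counts in both libraries. The microglia and macrophage markers with a row (6 of 14) took 0.00260% of uninjected and 0.00671% of treated counts. T lymphocyte markers took 0.0350% and 0.0197%, muscle markers 0.0234% and 0.0340%, and markers of dividing cells 0.00817% and 0.0197%. In the median cell, muscle markers took 0.0124% and 0.0145%, T lymphocyte markers 0.0116% and 0%, and the others 0% in both.

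The 10 genes have varied functions, and *Arf6* was listed as a partner of both *Kif23* and *Psd3*. *Hcar2* and *Cmklr1* encode G protein-coupled receptors known from immune cells, for hydroxycarboxylic acids such as nicotinic acid and β-hydroxybutyrate and for chemerin, respectively. *Slc7a7* encodes the light chain of the y+L cationic amino acid transporter, *Msrb3* a methionine sulfoxide reductase and *Hs6st2* a heparan sulfate 6-O-sulfotransferase. *Themis3* is a relative of *Themis*, a signalling protein of developing T cells. *Kif23* encodes a kinesin of the centralspindlin complex needed for cytokinesis, *Smtnl1* a smoothelin-like protein of muscle, *Psd3* an exchange factor for the small GTPase Arf6, and *Sin3a* the scaffold of a histone deacetylase corepressor complex. Cones are postmitotic neurons, and of the 10 genes none is used as a cone marker.

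The genes lie on 8 chromosomes in GENCODE vM21 (GRCm38), from *Hcar2*, a single-exon gene of 1930 bp, to *Psd3*, which spans 522946 bp. Their median length was 44228 bp against 22829.5 bp for all genes with a row, and their median number of exons was 7.5 against 7. A run of 10 or more A in the longest transcript was present in 3 of the 10 (*Kif23*, *Psd3* and *Hs6st2*) and in 19.5% of 15794 genes. Of the 10 genes, 7 had a promoter window in the RefSeq table for GRCm38.p6 (250 bases before and 50 after the start), and none was given for *Hcar2*, *Themis3* and *Psd3*. The windows of *Kif23*, *Smtnl1* and *Sin3a* (the upstream one) are shown 5′ to 3′ on the strand of the gene (minus, minus and plus). *Sin3a* is a gene of a chromatin complex. *Kif23* and *Smtnl1* were the pair with windows whose counts scaled to depth went together most closely across treated cells (Spearman correlation 0.86). On unscaled counts, which were at 1 in most wells, the correlation was 0.092. The scaled values followed the inverse of the total count of the well (0.87 for *Kif23* and 0.98 for *Smtnl1*). The closeness of this pair therefore does not show that the genes were expressed together. Capitals mark matches on either strand to 5 sets of letters, which were the core promoter letters TATAAA and the box with CCAAT, the GC box with GGGCGG, the cell cycle genes homology region with TTTGAA and the E-box with CACGTG.
*Kif23*, chr9:61946750-61947049: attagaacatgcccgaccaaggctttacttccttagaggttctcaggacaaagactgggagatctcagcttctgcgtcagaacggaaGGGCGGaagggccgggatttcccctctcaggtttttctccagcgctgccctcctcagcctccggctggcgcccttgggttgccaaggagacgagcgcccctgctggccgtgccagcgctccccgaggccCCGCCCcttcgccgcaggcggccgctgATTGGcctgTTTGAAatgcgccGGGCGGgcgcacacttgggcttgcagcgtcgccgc
*Smtnl1*, chr2:84822603-84822902: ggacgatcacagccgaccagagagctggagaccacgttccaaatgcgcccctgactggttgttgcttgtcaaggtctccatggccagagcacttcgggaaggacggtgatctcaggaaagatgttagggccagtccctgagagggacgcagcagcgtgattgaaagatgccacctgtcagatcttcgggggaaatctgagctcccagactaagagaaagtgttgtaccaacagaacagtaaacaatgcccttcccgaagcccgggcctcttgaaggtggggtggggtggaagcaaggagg
*Sin3a*, chr9:57071790-57072089: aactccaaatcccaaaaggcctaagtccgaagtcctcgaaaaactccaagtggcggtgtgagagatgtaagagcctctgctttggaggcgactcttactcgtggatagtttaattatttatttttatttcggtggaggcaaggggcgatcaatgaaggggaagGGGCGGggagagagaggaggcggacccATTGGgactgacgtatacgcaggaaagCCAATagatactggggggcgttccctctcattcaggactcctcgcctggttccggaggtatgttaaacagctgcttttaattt
The *Kif23* window held 25 CG pairs, 3 GC boxes, 1 CCAAT and 1 TTTGAA. The *Smtnl1* window held 11 CG pairs and none of the 5, and the *Sin3a* window held 14 CG pairs, 2 CCAAT and 1 GC box. Since the *Smtnl1* window held none, the 3 windows could have no set of letters in common, but those of *Kif23* and *Sin3a* shared CCAAT and GGGCGG. The second *Sin3a* window, which is not shown, held 25 CG pairs, 3 CCAAT and 3 GC boxes. Over 32851 windows, 13.6% held TATAAA, 37.4% CCAAT, 35.7% GGGCGG, 17.9% TTTGAA and 7.15% CACGTG, and the median window had 7 CG pairs.

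**Figure D1:**
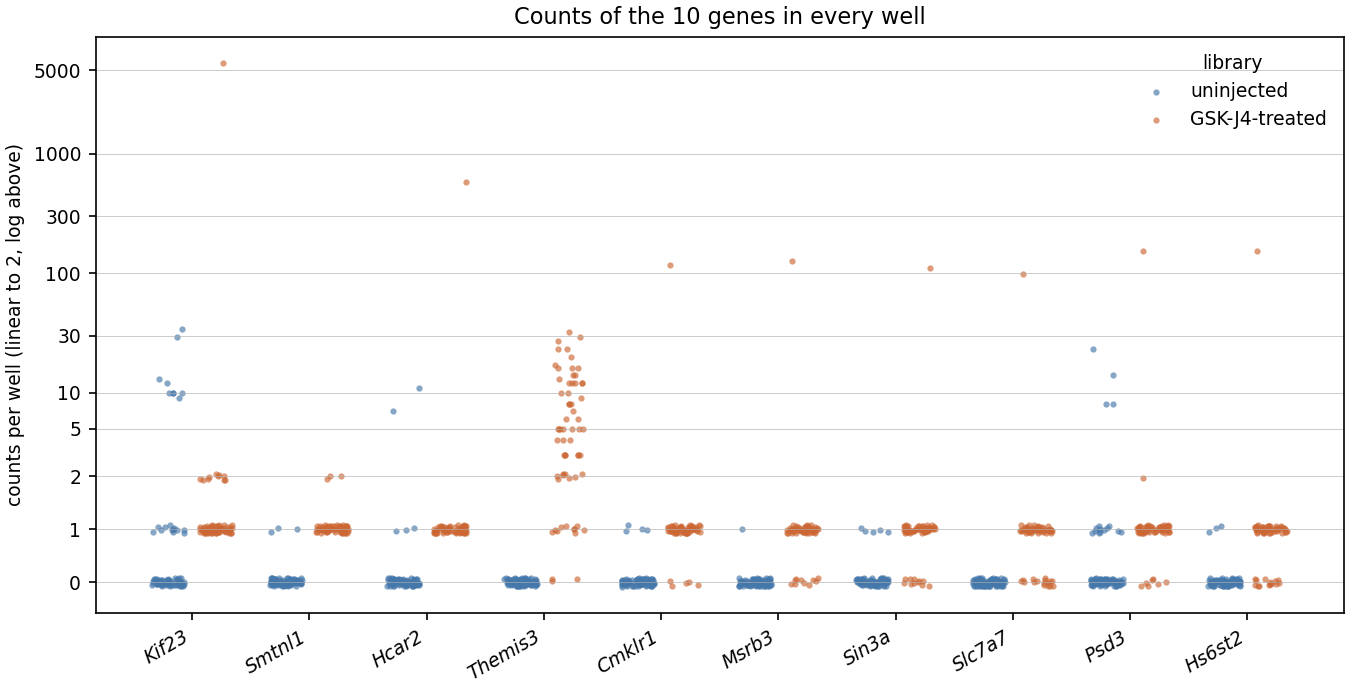
Counts per well (y axis, linear up to 2 and logarithmic above) of the 10 genes (x axis) in 82 uninjected and 64 GSK-J4-treated wells, with 1 point per well, spread sideways and, below 3 counts, slightly up and down. Most treated wells sit at 1 count, 8 genes have a single well between 99 and 5763, and only *Themis3* fills the range from 0 to 32.

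*Kif23* (chr9:61915905-61946774) had a count in all 64 treated wells (100%, 95% Clopper-Pearson interval 94.4 to 100). Of these wells 53 held 1 count, 10 held 2 and 1, well F01, held 5763, which was 98.8% of the 5836 treated counts of the gene and 43.6% of the 13203 counts of that well. In the uninjected library 21 of 82 wells had *Kif23* (25.6%, 16.6 to 36.4), 12 of them with 1 count and 9 with 9 to 34, and the sum was 149 counts. In raw counts the distributions thus overlapped, and apart from F01 every treated well was below the 9 highest uninjected wells. Treated wells were shallower, however, and the order differed on counts scaled to depth. Per 10000 counts the highest uninjected well had 11.6, and the median was 5.04 in treated and 0 in uninjected wells. To set partner genes beside the 10, an average log-fold was used, which is the natural log of the mean over cells of counts per 10000, plus 1, in the treated minus the uninjected library. Of the 7682 genes that reached the minimum for it, a count in 10% of the cells of 1 library or the other, 20.4% were more than 0.3 higher and 24% more than 0.3 lower in the treated library. Of 12 partners of *Kif23* in cytokinesis with a row, 6 reached the minimum, and none of these was higher and 2 were lower by more than 0.3. The citron kinase gene *Cit*, which acts at the midbody, was found in 67.1% of uninjected and 17.2% of treated cells (log-fold -0.54).

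*Smtnl1* (chr2:84811176-84822652) was also found in all 64 treated wells, 61 times with 1 count and 3 times with 2, which made 67 counts in the library. No well stood apart, and the variance of its counts was 0.030 of their mean without the highest well. In the uninjected library 3 of 82 wells (3.66%, 0.761 to 10.3) had 1 count each. Of 6 genes for other smoothelins and subunits of the myosin phosphatase, 2 reached this minimum, and both were higher by more than 0.3, beside 20.4% of all genes. The median over all 6 was 0.15, and a count of 2 genes is too small to read against that share.

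*Hcar2* (chr5:123863570-123865499) had exactly 1 count in 63 of the 64 treated wells and 583 counts in well C02, where it was 13.0% of 4494 counts. Without C02 its counts had no variance at all. Uninjected wells with *Hcar2* were 5 of 82 (6.10%, 2.01 to 13.7), with 1, 1, 1, 7 and 11 counts. *Cmklr1* (chr5:113612354-113650426), the chemerin receptor, had 1 count in 58 treated wells, none in 5 and 118 in well B09 (92.2% of wells, 82.7 to 97.4), against 4 uninjected wells with 1 count each (4.88%, 1.34 to 12). Both receptors therefore had 1 dominant well, but *Cmklr1* was missing from some shallow wells. Among 4 related receptor and ligand genes with a row, none reached it.

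*Slc7a7* (chr14:54369442-54417780) was the member in the fewest treated wells, 48 of 64 (75.0%, 62.6 to 85.0), with 47 wells at 1 count and well D07 at 99. *Msrb3* (chr10:120781096-120899101) was found in 54 treated wells (84.4%, 73.1 to 92.2), 53 of them at 1 count and well E02 at 126. *Hs6st2* (chrX:51387212-51681856) was found in 50 (78.1%, 66.0 to 87.5), 49 of them at 1 count and well G07 at 153. These enzymes and the transporter were almost absent from uninjected wells. *Slc7a7* had a count in 0 of 82 cells, and the exact interval allows a share of up to 4.4%. *Msrb3* had 1 count in 1 well and *Hs6st2* 1 count in each of 3 wells. The heavy chain partner of *Slc7a7*, *Slc3a2*, went the other way, in 45.1% of uninjected and 6.25% of treated cells (log-fold -0.81). Of 6 transporter genes that reached the minimum, 1 was higher and 1 lower by more than 0.3, which is near the 20.4% and 24% of all genes, and *Slc7a1* (-0.19) and *Slc7a2* (0.22) were within 0.3. Of 9 such heparan sulfate enzymes 2 were higher, again near the 20.4% of all genes, and 1 was lower, with the sulfatase gene *Sulf1* at -0.0044, and the 1 such methionine sulfoxide reductase was lower.

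*Sin3a* (chr9:57072040-57128366) was found in 53 treated wells (82.8%, 71.3 to 91.1), 52 of them at 1 count and well E02 at 111, and in 5 uninjected wells (6.10%, 2.01 to 13.7) at 1 count each. Its dominant well was thus the same as that of *Msrb3*, and *Sin3a* took 2.14% and *Msrb3* 2.43% of the 5180 counts of E02. Of 6 other genes of the Sin3 complex at the minimum, none was higher and 1 was lower, beside 20.4% and 24% of all genes. *Psd3* (chr8:67689082-68212027) was found in 57 treated wells (89.1%, 78.8 to 95.5), 55 of them at 1 count, 1 at 2 and well F09 at 153. F09 was the 60th of 64 treated wells in depth with 596 counts, of which *Psd3* made up 25.7%. In the uninjected library *Psd3* was in 16 wells (19.5%, 11.6 to 29.7), 12 of them at 1 count and the others at 8, 8, 14 and 23. Among 5 exchange factors for Arf6 at the minimum, 2 were higher by more than 0.3 and none was lower, beside 20.4% and 24% of all genes. A count of 5 genes is too small to read against those shares. The 2 were *Psd4* (log-fold 0.45) and *Iqsec1* (0.56, in 48.8% of uninjected and 37.5% of treated cells). In *Iqsec1* 1 treated well held 37 of the 77 treated counts. *Arf6* itself was at -0.15.

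*Themis3* (chr17:66554505-66594621) differed from the other 9. It was found in 61 of 64 treated wells (95.3%, 86.9 to 99), of which 10 had 1 count, 8 had 2 and 43 had 3 or more. The lowest treated well had 0, the median 5 and the highest, D07, 32, followed by F01 with 29, and D07 held only 6.63% of the 483 counts. No uninjected cell had a count (0 of 82, up to 4.4%), although uninjected wells were deeper. The summed treated level of *Themis3*, 23.2 per 10000 counts, was 859-fold that of a floor of 3 counts over the uninjected library. The exact 95% upper limit for 0 counts was 3.69, so this ratio is not a lower bound. Of 6 genes for Themis proteins and their adaptors 2 had a row, and together they made up 0.00260% of uninjected and 0.00959% of treated counts. *Themis* itself was in 9.76% of uninjected and 17.2% of treated cells (log-fold 0.27).

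Sequence shared with other genes could not be checked without a genome. In GENCODE vM21 no gene overlaps *Kif23*, *Smtnl1*, *Hcar2* or *Themis3*. *Cmklr1*, *Msrb3*, *Sin3a*, *Slc7a7* and *Psd3* overlap genes on the other strand, and *Hs6st2* holds a processed pseudogene (*Gm14581*) on its own strand. No source says that reads were counted by strand, so the counts of these 6 genes are uncertain in this respect. The antisense gene *Gm15991* within *Psd3* had 272 counts of its own over both libraries.

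**Figure D2:**
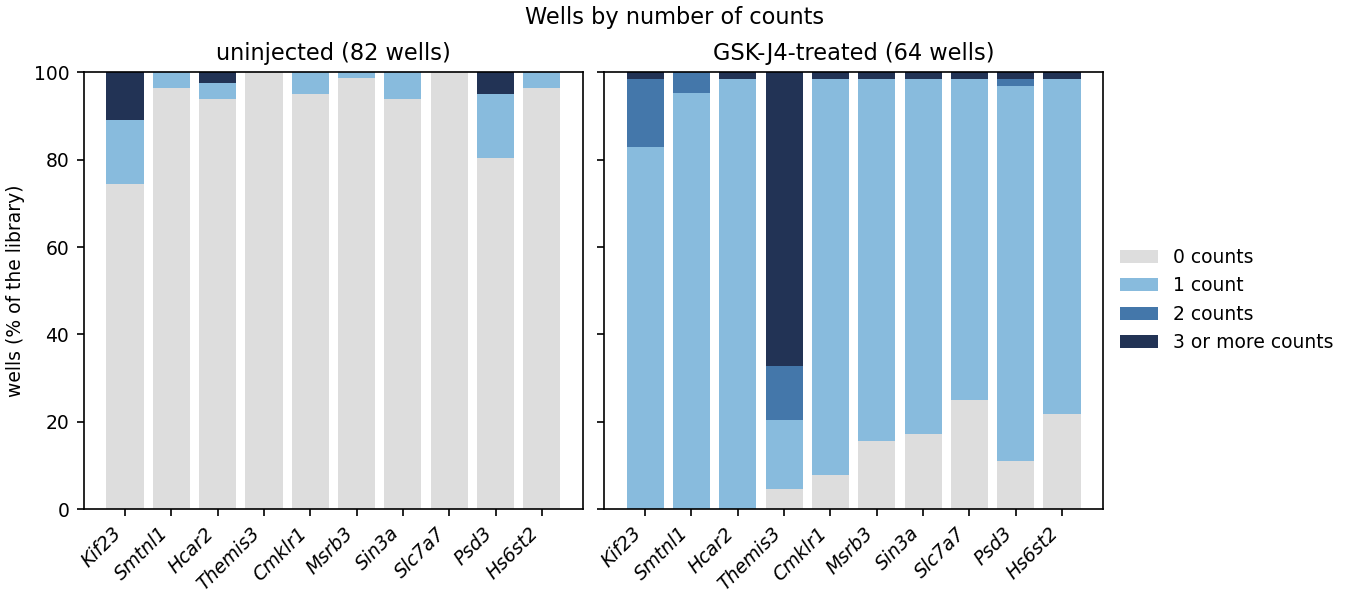
Percentage of wells (y axis) with 0, 1, 2 or at least 3 counts of each gene (x axis) in the uninjected (left) and the GSK-J4-treated library (right). Wells at 1 count make up most of the treated bar of every gene but *Themis3*, where 43 of 64 wells have 3 or more.

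The share of wells at exactly 1 count was then set beside that of other genes. In the treated library 222 genes were found in 50% of the cells or more, and in 30.6% of them (68 genes) at least 90% of the wells with a count held exactly 1. Of the 10 genes 8 did so, the exceptions being *Kif23* (82.8%) and *Themis3* (16.4%). The median share of wells at 1 was 98.0% for the 10 genes and 53.7% for the 222. In the uninjected library 793 genes were found in 50% of the cells or more, with a median share of 37.2%, and only 6 of them (0.757%) reached 90%. A single well held at least 50% of the counts in 48.2% of the 222 genes (107 genes) and in 8 of the 10, all but *Smtnl1* and *Themis3*. Therefore the pattern of 1 count per well with 1 dominant well was frequent among the 10 genes, but not particular to them. Of 215 treated genes with 50 or more counts in a well, 76 had a mean of at most 1.1 counts in the other wells where they were found, as opposed to 7 of 1193 uninjected genes.

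**Figure D3:**
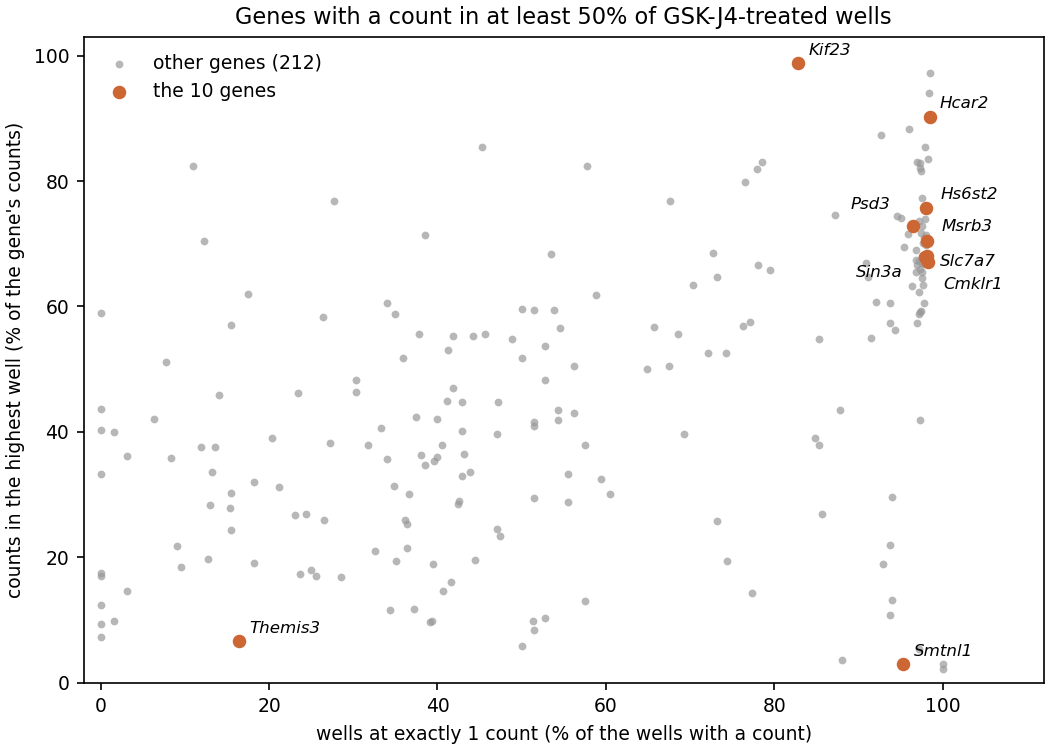
For the 222 genes found in 50% or more of the GSK-J4-treated wells, the x axis gives wells at exactly 1 count (% of the wells with a count) and the y axis the counts in the highest well (% of the counts of the gene). Of the 10 genes (orange), 8 lie in the upper right with grey points of other genes around them, *Smtnl1* lies at the lower right with 2.99% of its counts in its highest well, and *Themis3* at the lower left.

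The counts themselves varied little from well to well. With the highest well left out, the variance of the counts over the other 63 treated wells was 0 to 0.258 of the mean for the 9 genes other than *Themis3*, as opposed to 6.87 for *Themis3*. Since the genes were chosen for being found in most treated wells, and these wells held 1 count, a low variance of the 9 followed in part from the choice.

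Counts of *Themis3* went with depth, while those of *Smtnl1* and *Hcar2* were nearly the same at every depth. The treated wells were divided by the counts of all other genes into 22 shallow (414 to 1249), 21 intermediate (1299 to 3414) and 21 deep wells (3608 to 15339). *Themis3* had a median of 2 counts in shallow wells (0 to 5), 4 in intermediate (0 to 14) and 14 in deep wells (6 to 32). Its Spearman correlation with the other counts across the 64 cells, which share a plate and a pool, was 0.85. *Kif23*, *Smtnl1* and *Hcar2* had a median of 1 and were found in every well of each depth, down to 414 other counts, with correlations of 0.54, 0.13 and 0.092. *Kif23* thus went with depth more than the other two, and its wells with 2 counts had 2765 to 11279 other counts. The remaining genes stayed at a median of 1 in intermediate and deep wells but were missing from part of the shallow wells. *Slc7a7* and *Hs6st2* were found in 10 of 22 shallow wells each, *Sin3a* in 12, *Msrb3* in 14, *Psd3* in 15 and *Cmklr1* in 17, while each was found in 20 or 21 of the 21 deep wells. The correlation with depth of these 6 genes was between 0.36 and 0.55.

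In the uninjected library *Kif23*, *Hcar2*, *Sin3a* and *Psd3* were found mainly in deep cells. *Kif23* had a count in 4 of 28 shallow, 4 of 27 intermediate and 13 of 27 deep wells. *Hcar2* and *Sin3a* were found in deep wells only, 5 each, and *Psd3* in 0, 5 and 11. *Cmklr1* was found in 0 shallow, 3 intermediate and 1 deep well, *Smtnl1* and *Hs6st2* in 0, 1 and 2 each and *Msrb3* in 1 deep well, and *Themis3* and *Slc7a7* in none. The deepest uninjected well, C12 with 98250 counts, was the only one with 5 of the 10 genes (*Kif23* 13, *Hcar2* 11, *Sin3a*, *Psd3* and *Hs6st2* 1 each). The well next in depth, C06 with 75174, had 4 (*Kif23* 12, *Smtnl1*, *Msrb3* and *Sin3a* 1 each).

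**Figure D4:**
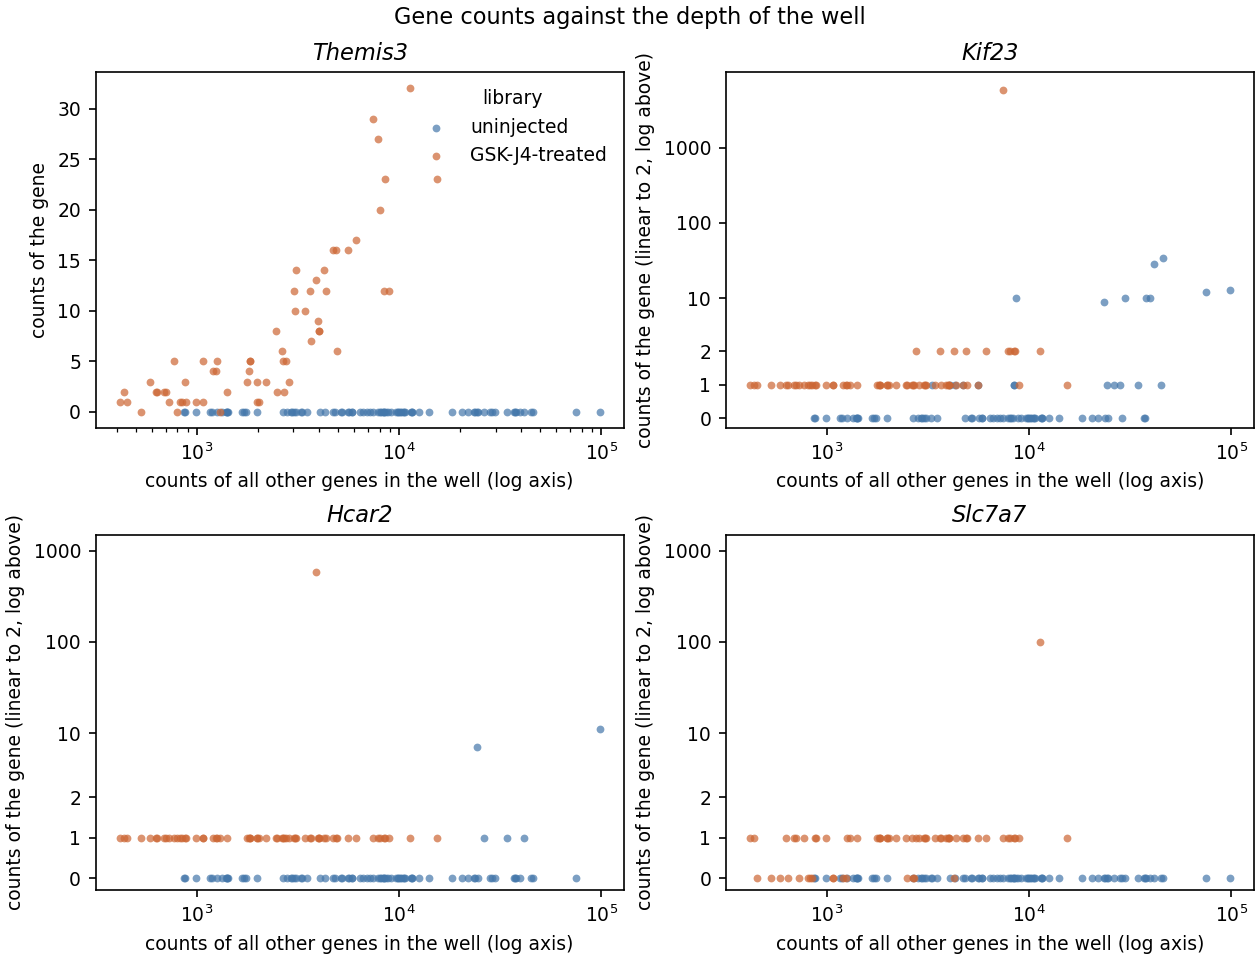
Counts of *Themis3* (linear axis), *Kif23*, *Hcar2* and *Slc7a7* (axis linear up to 2, logarithmic above) against the counts of all other genes in the well (log axis), with 1 point per well. *Themis3* rises with depth in treated wells (median 2, 4 and 14 in shallow, intermediate and deep wells) and is 0 in all uninjected wells. *Hcar2* is at 1 in all treated wells but 1, and *Slc7a7* at 0 in 12 of the 22 shallow wells. *Kif23* is at 1 or 2 in all treated wells but F01 (5763), and its wells at 2 have 2765 to 11279 other counts.

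When each cell was thinned to 867 counts, which left out 14 treated cells and 1 uninjected cell, *Themis3* was found in 90% of 50 treated cells and no uninjected cell. The other 9 genes were found in 24% (*Slc7a7*) to 44% (*Msrb3*) of treated cells, as opposed to 75.0% to 100% without thinning. *Kif23* was found in 8.64% and *Psd3* in 2.47% of thinned uninjected cells, and the others in none. With at least 2 counts asked for in place of 1, *Themis3* was found in 79.7% of treated and 0% of uninjected cells, *Kif23* in 17.2% and 11.0% and *Smtnl1* in 4.69% and 0%. *Hcar2* was then found in 1.56% of treated and 2.44% of uninjected cells and *Psd3* in 3.12% and 4.88%, so that their order was turned. *Cmklr1*, *Msrb3*, *Sin3a*, *Slc7a7* and *Hs6st2* were found in 1 treated cell each at this limit and in no uninjected cell.

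Dominant wells differed between the genes. F01 held most *Kif23* counts, C02 *Hcar2*, B09 *Cmklr1*, E02 both *Msrb3* and *Sin3a*, D07 *Slc7a7*, F09 *Psd3* and G07 *Hs6st2*. In each of these wells the other genes of the group had their usual 0 to 2 counts, or 2 to 32 for *Themis3*. The second highest treated well held 1 count for *Hcar2*, *Cmklr1*, *Msrb3*, *Sin3a*, *Slc7a7* and *Hs6st2* and 2 for *Kif23* and *Psd3*, so no well lay between. On the uninjected plate 54 well positions were also used on the treated plate. Where the position of the dominant treated well was present there, the uninjected count of the gene was 0; F01 was not. Whether the single counts came from the RNA of the cell sorted into the well was not tested.

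The average log-fold was 3.81 for *Kif23*, 3.35 for *Psd3*, 3.27 for *Hcar2*, 3.19 for *Themis3*, 2.45 for *Cmklr1*, 2.29 for *Hs6st2*, 2.26 for *Msrb3*, 2.13 for *Sin3a*, 2.04 for *Smtnl1* and 1.85 for *Slc7a7*. All 10 were above 0.3, as the choice of the genes made likely; of the 7682 genes that reached the minimum 20.4% were above 0.3, with a median of -0.0050. The order rested largely on the dominant wells. Leaving out the highest well of each gene from each library, an alternative chosen after seeing the data, gave 1.61 for *Kif23*, 1.47 for *Psd3* and 2.0 for *Hcar2*, whereas *Themis3* (3.19) and *Smtnl1* (2.04) hardly moved. *Themis3* thereby went above *Kif23*, *Psd3* and *Hcar2*. *Cmklr1* was then at 1.83, *Msrb3* at 1.78, *Sin3a* at 1.64, *Slc7a7* at 1.62 and *Hs6st2* at 1.58. In *Kif23* the mean over treated cells was 75.2 per 10000 counts and the median 5.04, and in *Psd3* they were 44.8 and 3.40, while the mean and the median of *Themis3* were both 23.3.

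**Figure D5:**
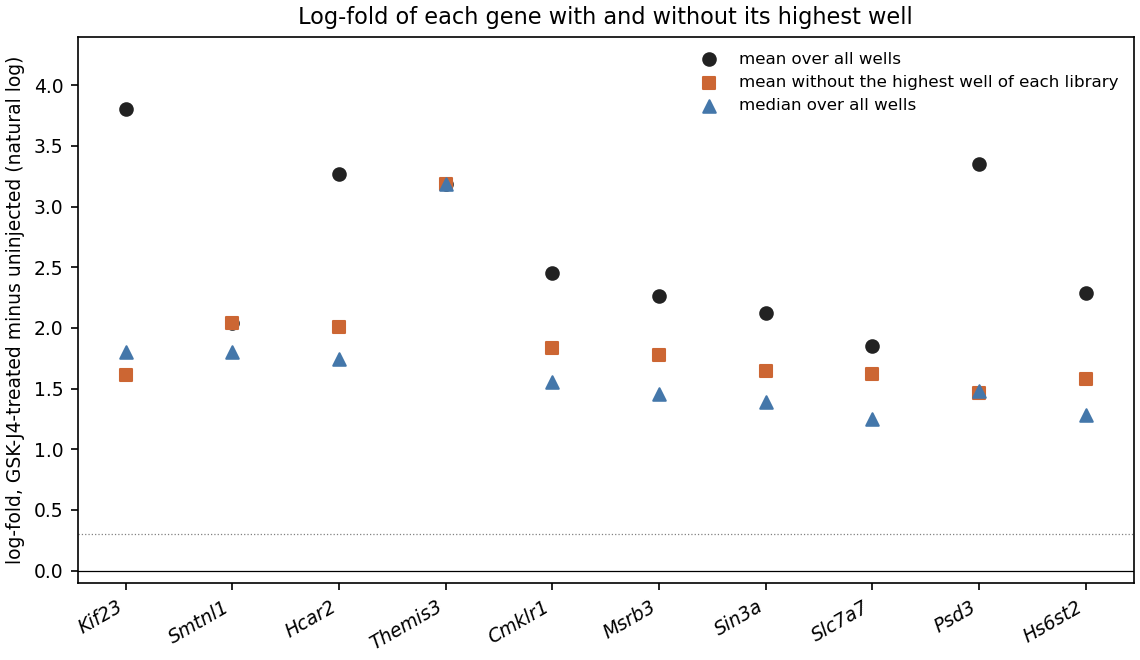
Log-fold of the 10 genes (y axis, natural log, GSK-J4-treated minus uninjected) from the mean over all wells (circles), from the mean without the highest well of each library (squares) and from the median over all wells (triangles). The dotted line is at 0.3. *Kif23* drops from 3.81 to 1.61 and *Psd3* from 3.35 to 1.47 without 1 well, whereas the 3 symbols of *Themis3* lie on each other at 3.19.

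The 10 genes were found together in single cells of the treated library. Since each was chosen for being found in most treated and few uninjected cells, this followed largely from the choice. A treated cell had 4 to 10 of them with a median of 10, and 35 of 64 cells (54.7%) had all. At least 5 were found in 63 of 64 treated cells (98.4%, 91.6 to 100) and in 1 of 82 uninjected cells (1.22%, 0.0309 to 6.61), of which 46 had none. Cells with all 10 were deeper, at a median of 3980 counts against 883 in the other treated cells, and the number of genes found went with depth at a Spearman correlation of 0.76 in treated and 0.61 in uninjected cells. Together the 10 genes took 3.89% of treated counts, 8108 counts, of which 5763 were *Kif23* in F01. In the median treated cell they took 0.680% of counts, and this percentage was lower in deeper cells (Spearman correlation -0.57), as opposed to the number of genes found.

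Counts of the 10 genes had low rank correlations with each other, but most of these counts hardly varied. In the median gene of the 10, 98.0% of the wells with a count held exactly 1, so most ranks were tied. This share was 53.7% for the 222 genes in at least 50% of treated cells. A lower correlation on counts in the 10 genes therefore cannot be read as a weaker relation. Over the 45 pairs the median Spearman correlation across 64 treated cells was 0.17 on counts (-0.057 to 0.62), as opposed to 0.43 over the 22366 pairs of the other 212 genes in at least 50% of treated cells. On counts per 10000 the order was the other way, 0.20 (-0.13 to 0.92) against 0.053. The closest pairs on this scale were *Smtnl1* with *Hcar2* (0.92) and *Kif23* with *Smtnl1* (0.86), whose correlations on counts were -0.028 and 0.092. Since these genes had 1 count in nearly every well, their scaled value followed the inverse of the total count of the well, with a correlation of 0.98 for *Smtnl1*, 0.94 for *Hcar2* and 0.87 for *Kif23*. *Msrb3* and *Slc7a7* were related on both scales (0.57 scaled, 0.62 on counts). Among 808 genes in at least 25% of treated cells, the gene most like *Themis3* was *Snap91*, which encodes a clathrin adaptor of synapses, at 0.41 scaled and 0.85 on counts. On scaled values *Cmklr1* was most like *Mturn* (0.76, and 0.47 on counts) and *Sin3a* most like *Mrpl12* (0.48, and 0.57 on counts). *Psd3* and *Hs6st2* were most like *Cmklr1* (0.55 and 0.46, and 0.39 and 0.51 on counts). The scaled values of *Cmklr1* and *Psd3* also went with the inverse of the total count, at 0.61 and 0.49. Those of *Sin3a* and *Hs6st2* did so less, at 0.23 and 0.13. In the uninjected library 28 pairs could be computed, with a median of 0.075 on counts and 0.060 scaled, and few cells held both genes of a pair.

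The 10 genes were found on both sides of the treated plate. *Kif23*, *Smtnl1* and *Hcar2* were in all 33 wells of columns 1 to 6 and all 31 of columns 7 to 12. The others were in 69.7% to 93.9% of the first and 80.6% to 96.8% of the second. The largest gap was that of *Msrb3*, found in 24 of 33 and 30 of 31 wells.

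Other genes lay among the 10 and next to them. Of 15947 genes 76, or 0.477%, were found in 50% or more of treated and 30% or less of uninjected cells, and so were all 10. Ranked by the difference between the 2 shares, *Mgmt* shared rank 1 with *Smtnl1*, *Gm31557* was at rank 5 and *Eci1* at rank 8. Of these only *Smtnl1* is in the choice. *Psd3* was last of the 10 at rank 19 with 69.6 percentage points. The next gene, *4631405J19Rik*, was at 68.8 percentage points, with exactly 1 count in 44 treated wells and none in the uninjected library. Of the 10 genes outside the choice with the largest difference, *Mgmt*, which encodes a DNA repair protein, had 1 count in 63 treated wells and 2143 in well D07. *March7* had 960 counts in B07, *Eci1* 282 in C12, *Twsg1* 270 and *Cabp1* 95 in E02, *Tcte2* 157 and *Gad1os* 113 in H11, and *Micall2* 99 in D07. Thus 8 of these 10 neighbours had the same form as *Hcar2* and *Cmklr1*. Of the others, *4631405J19Rik* had no dominant well, and in *Gm31557* 17 of 56 wells were at 1 count and 212 of 439 counts were in H11. D07 was therefore the highest well of *Slc7a7*, *Themis3*, *Mgmt* and *Micall2*, and E02 that of *Msrb3*, *Sin3a*, *Twsg1* and *Cabp1*.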

How the data were processed

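The authors sorted GFP-positive cones 1 per well, sequenced the 3' and 5' ends, demultiplexed by plate, cell barcode and primer, aligned with the CLC Genomics Workbench, collapsed PCR duplicates that shared a molecular identifier and a position, assigned reads to genes by featureCounts, and summed 3' and 5' counts. The deposited values are these counts, whole numbers without normalization. The build name they give, GRCh38, is that of a human genome, and gene positions were taken here from GENCODE vM21 (GRCm38). Their batch correction was left out.

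Genes in fewer than 3 cells and cells with fewer than 200 genes or over 5% mitochondrial counts were left out. Values were computed with scipy 1.17.1, numpy 2.4.6 and pandas 2.3.3 (Python 3.11.15), with scripts checked on simulated data. The 95% Clopper-Pearson intervals hold the error of counting and no other; the floor for a library without a count was 3 counts. Cells are not replicates, so correlations carry no p. The treatment of doublets is not given in the sources used here, and no doublet caller was run.

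The 10 genes, the lists and the tests were chosen with earlier results of these data known. Named beside them are the 10 other genes with the largest difference in shares, list genes found in 25% of the cells of one library or more, and the most correlated gene of each; *Psd4*, *Arf6* and *Themis* were named after their values were seen.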

Additional observations from a re-analysis of the deposited data

Results flagged for a closer look

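The 2 treated cells left out for their mitochondrial share were not part of the comparisons, and both held the genes. Well A10, with 1914 counts, had 10 of the 10 genes, *Themis3* with 6 counts and the others with 1 each. Well B03, with 562 counts, had 7 of the 10, *Themis3* with 2 counts and the other 6 with 1 each. The 3 uninjected cells left out, with 1413, 4292 and 12826 counts, had none of the 10.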

How the results depend on the processing

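No paired analysis was possible because each group has 1 library. Over 12 alternatives all 120 log-folds of the 10 genes were positive and above 0.3, from 0.94 to 5.45, as the choice of the genes made likely. The share of all genes above 0.3 ran from 2.03% with medians over cells to 46.6% after thinning. *Psd3* was lowest, at 0.94 with cells of 1000 to 10000 counts, which leaves out well F09, and *Kif23* was 1.24 there, without F01. The median log-fold of the 10 genes, 2.37, was 1.97 with median-ratio size factors, 4.34 with a pseudocount of 0.1, 1.97 in wells of columns 7 to 12 only, 1.71 without the highest well of each gene and 1.52 from medians over cells, the last pair chosen after seeing the data. With the size factors the median of all genes was -0.14. The share of treated cells with 5 or more of the genes, 98.4%, was 100% with at least 500 genes per cell, in columns 7 to 12 and at 1000 to 10000 counts, 36% after thinning and 0% with at least 2 counts per gene. The uninjected share, 1.22%, was 1 cell, well C12 with 98250 counts. It was 0% after thinning, in columns 1 to 6, at 1000 to 10000 counts, with at least 2 counts and without the highest wells. C12 is left out by the limits on columns and on depth. Only *Kif23* and *Hcar2* had 2 or more counts in it, and it was the highest uninjected well of *Hcar2*. The cause of the other shifts was not tested. The 6 genes missing from part of the shallow wells were found in 10 to 17 of 22 of them.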
